A study of Mus musculus with 6 samples.

Results

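The rodent short interspersed elements (SINEs) examined here were 17443 peaks of open chromatin that the authors' annotation placed in a B1, B2 or B4 copy within an intron or between genes. They made up 9.91% of the 175929 peaks in the table. A peak was taken as a member when its detailed annotation named a SINE of the Alu class (as rodent B1 is listed), the B2 class or the B4 class and its broad annotation was intron or intergenic. This gave 3068 B1, 11243 B2 and 3132 B4 peaks. The rule used annotation alone and no tag value.

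SINEs are short, non-autonomous retrotransposons that are copied through RNA with the enzymes of LINE-1 elements. B1 descends from the 7SL RNA of the signal recognition particle, B2 from a transfer RNA, and B4 joins a transfer RNA-derived part to a B1-like part. Each carries or once carried an internal RNA polymerase III promoter with an A box and a B box, most copies are silenced in chromatin, and B2 copies are known to have spread binding sites of the insulator protein CTCF through rodent genomes.

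ATAC-seq, an assay whose transposase cuts and tags open DNA, was run on 6 libraries of mouse leukaemia cells. All 6 came from Usp18+/f cells with a tamoxifen-activated Cre and driven by AE9a, a truncated AML1/ETO fusion protein, transplanted into recipient mice and sorted from spleen as GFP+ Lin- c-Kit+ cells 3 days after injections began. Cells of the oil group (replicates 1, 2 and 4) kept the floxed allele of Usp18, which encodes a protease that removes ISG15. Those of the tamoxifen group (replicates 1, 3 and 4) came from mice given the drug that activates the Cre recombinase, so the drug, the active Cre and the loss of 1 Usp18 allele cannot be told apart. The deletion itself was not measured here. Because the labels do not tie libraries to separate mice, SDs and p-values measure the spread between these libraries.

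Mapped tags ran from 57358371 to 74667821 per library, of which 28.2 to 30.5% fell in peaks and 846835 to 1101915 tags in SINE peaks. The median SINE peak held 32 to 43 tags per library, so counting error was a sizeable part of its spread. Over SINE peaks the chi-square per degree of freedom between libraries was 1.025 to 1.148 within the oil group and 1.451 to 2.521 within the tamoxifen group, and both tamoxifen pairs above 2 included replicate 4. The sorted progenitor identity was checked on peaks near start sites. Kit, Cd34, Myb and Gata2 each had one, and of 12 marker genes of T, B, erythroid and mature myeloid cells 8 had a peak within 3000 bp of the start and 4 had none. The summed level of those 8 was 963.0 to 987.3 normalised tags after oil and 921.4 to 986.7 after tamoxifen. None (0) of the 8 was called, but only 0.654% of all peaks were, so so few peaks say little. The Cd34 peak rose (log2 fold change 1.50 ± 0.19 SE, DESeq2 adjusted p = 8.32e-12). The part of cell composition in the SINE results was not tested.

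The recurrent letters of the B2 peaks are shown first because their place in the peak differed. These are the 4 most frequent words of 16 bases among B2 peaks, leaving out simple repeats and words that share 8 bases in a row with a more frequent one, printed on the strand that carries the B box. They were read from GRCm38.p6, the same assembly as mm10, from 11235 B2 peaks with reference sequence. Capitals mark the whole word.
B2-1: TGATGCCCTCTTCTGG
B2-2: CACATGGTGGCTCACA
B2-3: TCCCAGCAACCACATG
B2-4: TGGAGAGATGGCTCAG

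Word B2-1 was present in 1890 B2 peaks (16.8%), B2-2 in 1773 (15.8%), B2-3 in 1437 (12.8%) and B2-4 in 1214 (10.8%), against 0.165 to 0.312% of intron and intergenic peaks outside repeats. Word B2-1 sat at the peak centre. Of its 1904 occurrences within 150 bp, 72.9% lay within 30 bp of the centre, with a median offset of 4.5 bp (quartiles -10.5 and 24.5). The other words of the same element lay off centre, at medians of -30.5 bp for B2-2, -41.5 bp for B2-3 and -93.5 bp for B2-4, and 37.6%, 24.4% and 6.0% of their occurrences fell within 30 bp. The genome holds 23675 copies of B2-1, of which 2269 (9.58%) lay in a peak of this table, whereas 4.34% of the 54843 copies of B2-2, 3.66% of the 54799 of B2-3 and 4.01% of the 43179 of B2-4 did. Copies of a word share their element and are not independent, and the words differ in how often their copies can be mapped, so these shares are given without a test. B2-1 was found in 32.5% of B2_Mm2 peaks, 32.7% of B2_Mm1t peaks and 25.8% of B2_Mm1a peaks but in 9.01% of B3 and 5.44% of B3A peaks, which are older relatives of B2.

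**Figure D1:**
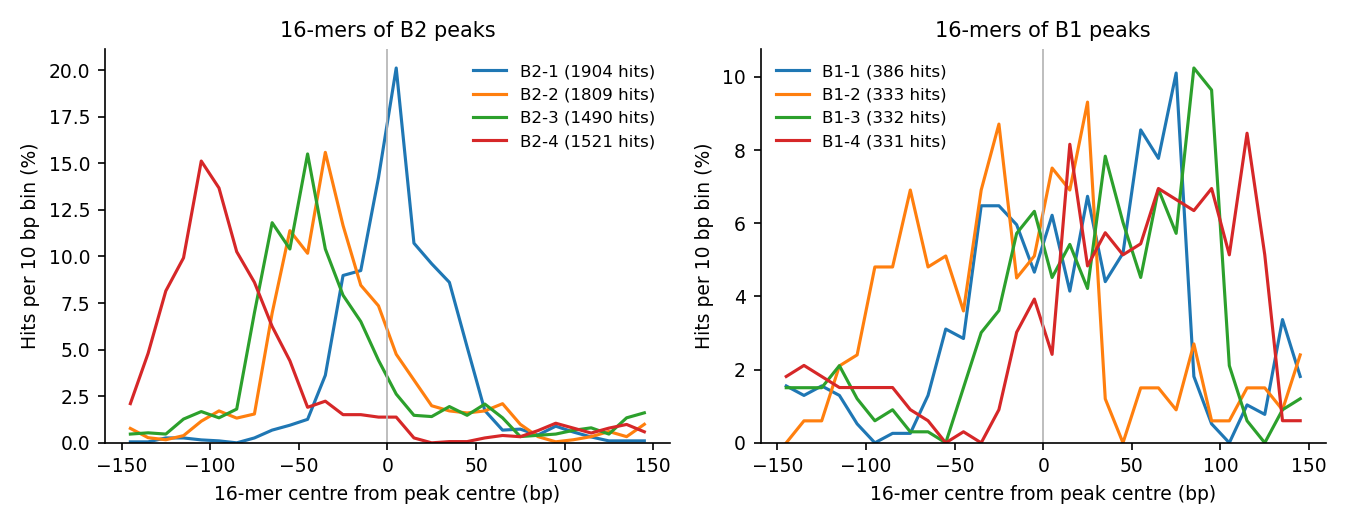
Position of the 4 most frequent 16-base words in B2 peaks (left) and B1 peaks (right), as the percentage of occurrences in each 10 bp bin (vertical axis) against the distance of the word from the peak centre in bp (horizontal axis, negative values 5′ on the B box strand). Word B2-1 is gathered at the centre with a median of 4.5 bp, whereas the other B2 words lie to its 5′ side and the B1 words are spread over the whole window.

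The words of B1 peaks were rarer per copy and had no such centre.
B1-1: GCCAGCCTGGTCTACA
B1-2: CTTTAATCCCAGCACT
B1-3: AGTTCCAGGACAGCCA
B1-4: CAGAGAAACCCTGTCT
These were present in 11.8%, 10.8%, 10.1% and 9.68% of 3057 B1 peaks with sequence. Between 23.3% and 42.0% of their occurrences lay within 30 bp of the peak centre, and their quartiles spanned from -64.5 to 94.0 bp. Of their 97797 to 197092 genome copies, 0.63 to 1.08% lay in a peak. B4 copies had no recurrent word of their own. After the simple repeat of alternating A and C, present in 241 B4 peaks (7.71%), no word other than simple repeats reached 2% of the 3127 B4 peaks with sequence, and the most frequent ones (1.73% and 1.63%) were the B1 words B1-4 and B1-2, at medians of -104.5 and 87.0 bp from the centre.

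For the members with the smallest adjusted p in each family and direction, the central 300 bases at most are printed on the plus strand of GRCm38.p6. Capitals mark words of 10 bases that occurred in at least 2% of the family's peaks and at least 5 times as often as in peaks outside repeats. The copies are a B3 of B2 past the 3′ end of Hspa1b (chr17:34945132-34945431), a B3 in the intergenic region whose nearest start site is that of Mettl4 (chr17:94553518-94553727), a PB1D9 of B1 past Hspa1b (chr17:34953635-34953849), a B1_Mur1 of B1 upstream of Srp9 (chr1:182096997-182097296), a B4A upstream of Sppl2a (chr2:126957573-126957872) and a B4 in an intron of Rgs1 (chr1:144248229-144248468).
B2, B3 copy by Hspa1b, lower after tamoxifen: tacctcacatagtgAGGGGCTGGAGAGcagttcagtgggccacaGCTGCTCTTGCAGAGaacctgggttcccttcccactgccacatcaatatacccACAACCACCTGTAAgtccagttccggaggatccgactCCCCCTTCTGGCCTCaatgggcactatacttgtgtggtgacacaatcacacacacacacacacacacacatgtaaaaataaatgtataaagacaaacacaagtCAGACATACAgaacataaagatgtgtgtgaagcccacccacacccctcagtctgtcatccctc
B2, B3 copy by Mettl4, higher after tamoxifen: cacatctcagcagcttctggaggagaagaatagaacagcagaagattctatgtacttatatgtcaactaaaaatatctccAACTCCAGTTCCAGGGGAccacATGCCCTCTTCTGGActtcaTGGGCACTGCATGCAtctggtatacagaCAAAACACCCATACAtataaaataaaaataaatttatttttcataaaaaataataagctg
B1, PB1D9 copy by Hspa1b, lower after tamoxifen: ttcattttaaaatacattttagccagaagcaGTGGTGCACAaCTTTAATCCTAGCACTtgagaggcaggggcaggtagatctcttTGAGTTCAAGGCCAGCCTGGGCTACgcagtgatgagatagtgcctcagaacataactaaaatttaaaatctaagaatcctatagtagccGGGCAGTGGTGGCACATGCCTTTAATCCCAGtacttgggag
B1, B1_Mur1 copy by Srp9, higher after tamoxifen: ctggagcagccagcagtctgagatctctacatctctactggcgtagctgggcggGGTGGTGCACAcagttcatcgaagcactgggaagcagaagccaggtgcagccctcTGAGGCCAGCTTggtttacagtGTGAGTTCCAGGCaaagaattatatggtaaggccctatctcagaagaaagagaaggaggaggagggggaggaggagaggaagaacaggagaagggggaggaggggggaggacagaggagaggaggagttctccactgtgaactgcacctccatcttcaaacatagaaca
B4, B4A copy by Sppl2a, lower after tamoxifen: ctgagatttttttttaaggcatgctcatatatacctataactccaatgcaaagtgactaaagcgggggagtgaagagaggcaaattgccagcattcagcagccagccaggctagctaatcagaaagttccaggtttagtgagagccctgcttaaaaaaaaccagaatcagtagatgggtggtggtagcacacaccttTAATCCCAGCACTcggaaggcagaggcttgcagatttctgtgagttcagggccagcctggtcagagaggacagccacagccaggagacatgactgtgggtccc
B4, B4 copy by Rgs1, higher after tamoxifen: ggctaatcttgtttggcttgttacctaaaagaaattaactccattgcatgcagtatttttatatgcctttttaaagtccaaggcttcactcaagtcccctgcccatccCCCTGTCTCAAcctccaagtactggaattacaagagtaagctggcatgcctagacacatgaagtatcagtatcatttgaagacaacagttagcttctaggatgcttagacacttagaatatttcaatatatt
The recurrent words covered 67 of 300 bases in the B3 copy by Hspa1b, 63 of 210 in that by Mettl4 and 82 of 215 in the PB1D9 copy, but 36 of 300 in the B1_Mur1 copy, 13 of 300 in the B4A copy and 11 of 240 in the B4 copy.

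SINE peaks were as wide as the others but held fewer tags. Median widths were 260 bp for B1, 247 bp for B2 and 260 bp for B4, against 253 bp for intron and intergenic peaks outside repeats. Median levels were 36.8, 37.0 and 36.6 normalised tags (tags divided by the DESeq2 size factor of the library), against 47.8 outside repeats. The middle of the peak lay in repeat-masked bases in 60.0% of B1, 73.8% of B2 and 32.5% of B4 peaks and in 6.57% of those outside repeats. In peaks annotated to MIR and L2 repeats the share was also low, at 5.32%. A low share therefore does not show that a peak was centred beside its element. Of the members, 796 B1 (25.9%), 1608 B2 (14.3%) and 532 B4 (17%) lay within 3000 bp of a transcription start site. Levels ran from 11.4 to 1154.4 in B1, from 12.1 to 922.9 in B2 and from 10.2 to 741.8 in B4, with 13, 8 and 7 peaks above 500. The B2 peaks were mainly B3 (4877), B2_Mm2 (3236) and B3A (2191), the B4 peaks ID_B1 (1005), B4A (861) and RSINE1 (853), and the largest B1 subfamily, B1_Mus1, had 367. B2_Mm1a, a young B2 subfamily, had 387 peaks with a median of 84.8% masked bases and the lowest level of any subfamily with over 50 peaks, 29.8 tags.

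Short motifs were searched on both strands in the 200 bp around each peak centre. The B box (GTTCNANNC), the inner element of the polymerase III promoter, was found in 32.8% of B1, 30.3% of B2 and 15.5% of B4 peaks, against 6.6% outside repeats and 8.78% of all peaks. The RUNX core (TGTGGTT), the site bound by the AML1 part of AML1/ETO, was found in 26.6% of B2 peaks but in 4.32% of B1 and 5.34% of B4 peaks, against 6.13% outside repeats and 6.91% of all peaks. In B2 these letters belong to the repeat. They are part of word B2-3, which was present in 1360 (45.4%) of the 2994 B2 peaks with the RUNX core, and they were found in 78.5% of B2_Mm1a, 73.3% of B2_Mm1t and 59.3% of B2_Mm2 peaks but in 4.98% of B3 and 5.76% of B3A peaks. B2 peaks with the RUNX core had a median level of 33.9 tags and those without it 38.4. This split is largely one by subfamily. Median levels were 36.4 in B2_Mm2, 31.6 in B2_Mm1t and 29.8 in B2_Mm1a, against 39.1 in B3 and 37.7 in B3A. The part of the letters themselves was not tested. GATA sites (AGATAA) were found in 15.2% of B1, 9.27% of B2 and 19.4% of B4 peaks (15.1% of all peaks), and ETS sites (GAGGAAG) in 7.56%, 2.62% and 8.70% (11.4% of all). The letters AGNNGGCGC, part of the CTCF site, were found in 0.82%, 5.53% and 1.09% (5.19% of all). Word B2-1 holds these letters on neither strand, so this search did not count it. Other forms of the CTCF site were not searched. The AP-1 site (TGANTCA) was found in 5.27%, 6.89% and 7.61% (6.61% of all), and the interferon element (GAAANNGAA) in 5.33%, 6.15% and 4.16% (5.13% of all). The NF-kB site (GGGANTTCC) was found in 1.31%, 0.21% and 0.58% (1.00% of all), and the heat shock element (GAANNTTC) in 2.68%, 2.06% and 2.49% (3.92% of all). A match is a description of letters and not evidence of binding.

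The comparison of tamoxifen with oil asked whether these elements changed as families and which copies changed. As families they were slightly lower after tamoxifen. B1 peaks took 0.928%, 0.937% and 0.991% of tags in peaks in oil replicates 1, 2 and 4 and 0.898%, 0.882% and 0.924% in tamoxifen replicates 1, 3 and 4. All 3 tamoxifen values lay below the oil values, and the mean fell from 0.952 ± 0.034 to 0.901 ± 0.021% (SD, n = 3 each), a ratio of 0.947. B2 peaks took 3.161%, 3.257% and 3.259% after oil and 3.118%, 3.078% and 3.125% after tamoxifen. These groups did not overlap either, with means of 3.226 ± 0.056 and 3.107 ± 0.025% (SD, n = 3 each) and a ratio of 0.963. B4 peaks took 0.922%, 0.931% and 0.976% after oil and 0.899%, 0.878% and 0.928% after tamoxifen, where tamoxifen replicate 4 lay above oil replicate 1, and the ratio of the means was 0.956. Taken as a share of all mapped tags, the ratios were 0.963, 0.980 and 0.972, and the B2 groups overlapped. Peaks outside repeats took 39.61 ± 0.551% after oil and 40.04 ± 0.502% with tamoxifen (SD, n = 3 each), and the groups overlapped.

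The same was seen peak by peak. The median log2 fold change was -0.09 over B1, -0.07 over B2 and -0.07 over B4 peaks, against 0.00 over all 175929 peaks (-0.001 before rounding) and 0.01 outside repeats, and 60.1% of SINE peaks had a value below 0 against 50.3% of all peaks. Each library's own median, on log2(normalised tags + 1) relative to the oil mean, was -0.017, -0.012 and 0.047 for B1 in the oil libraries and -0.093, -0.135 and -0.049 in the tamoxifen libraries. For B2 it was -0.009, 0.024 and 0.005 against -0.053, -0.076 and -0.046. For B4 it was -0.016, -0.002 and 0.038 against -0.066, -0.099 and -0.029. In each family the 3 tamoxifen libraries lay below the 3 oil libraries, with replicate 3 lowest and replicate 4 nearest to oil. LINE-1 peaks, whose machinery copies SINEs, had a median log2 fold change of 0.00 (0.002 before rounding) over 3699 peaks and LTR peaks -0.03 over 12458. Because these medians pool members that share libraries, they are given without a test. Fewer cells carrying an open copy and less opening per cell cannot be told apart in bulk libraries.

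**Figure D2:**
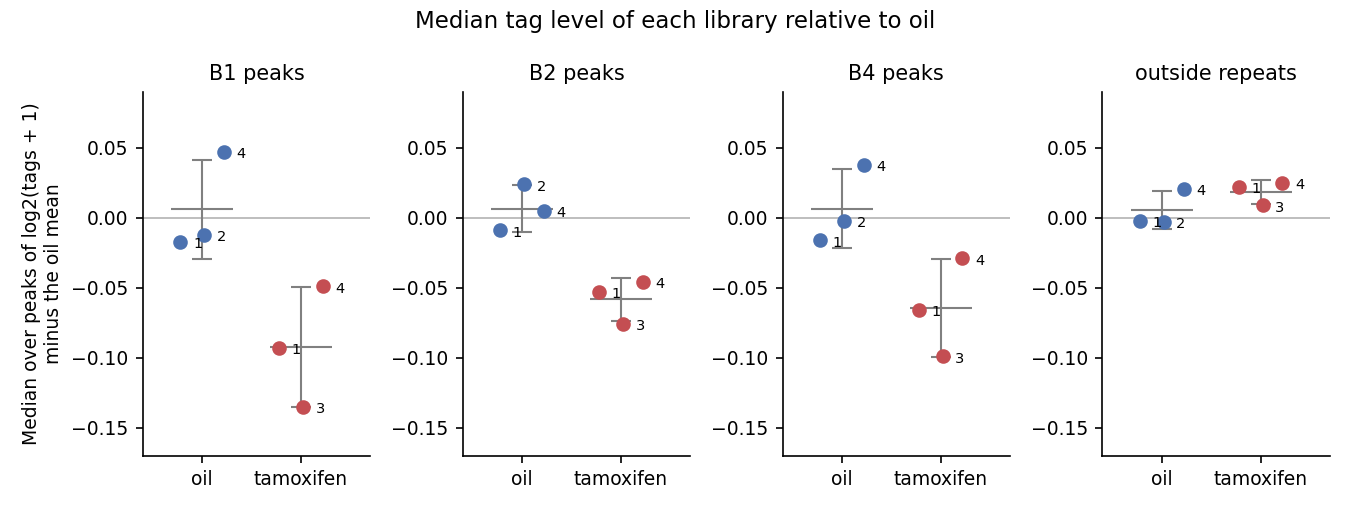
Median over the peaks of each family of log2(normalised tags + 1) minus the oil mean of the peak (vertical axis, log2 units) in each library (points, labelled by replicate number), with the group mean and SD (bars, n = 3). In B1, B2 and B4 the 3 tamoxifen libraries lie below the 3 oil libraries, and outside repeats the groups overlap.

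Members whose 3 tamoxifen values all lay below the 3 oil values were more frequent than over all peaks and those wholly above less frequent. The first made up 14.3% of B1, 12.9% of B2 and 13.2% of B4 peaks, against 10.0% of all peaks, and the second 5.83%, 7.04% and 7.89%, against 11.9%. The difference was spread over subfamilies. All subfamilies with over 50 peaks had a median below that of all peaks, from -0.04 in B4 and B3 to -0.16 in B2_Mm1a. Within B2 the younger B2_Mm1a (-0.16), B2_Mm2 (-0.11) and B2_Mm1t (-0.10) were lower than the older B3 (-0.04) and B3A (-0.05). Within B4, ID_B1 (-0.11) and B4A (-0.09) were lower than RSINE1 (-0.05) and B4 itself (-0.04). Intergenic members had lower medians than intronic ones in each family, -0.13 and -0.07 in B1, -0.10 and -0.04 in B2 and -0.10 and -0.05 in B4, whereas outside repeats both were 0.01. Members within 3000 bp of a start site were also lower, at -0.13, -0.11 and -0.12, than those beyond it, at -0.08, -0.06 and -0.06.

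**Figure D3:**
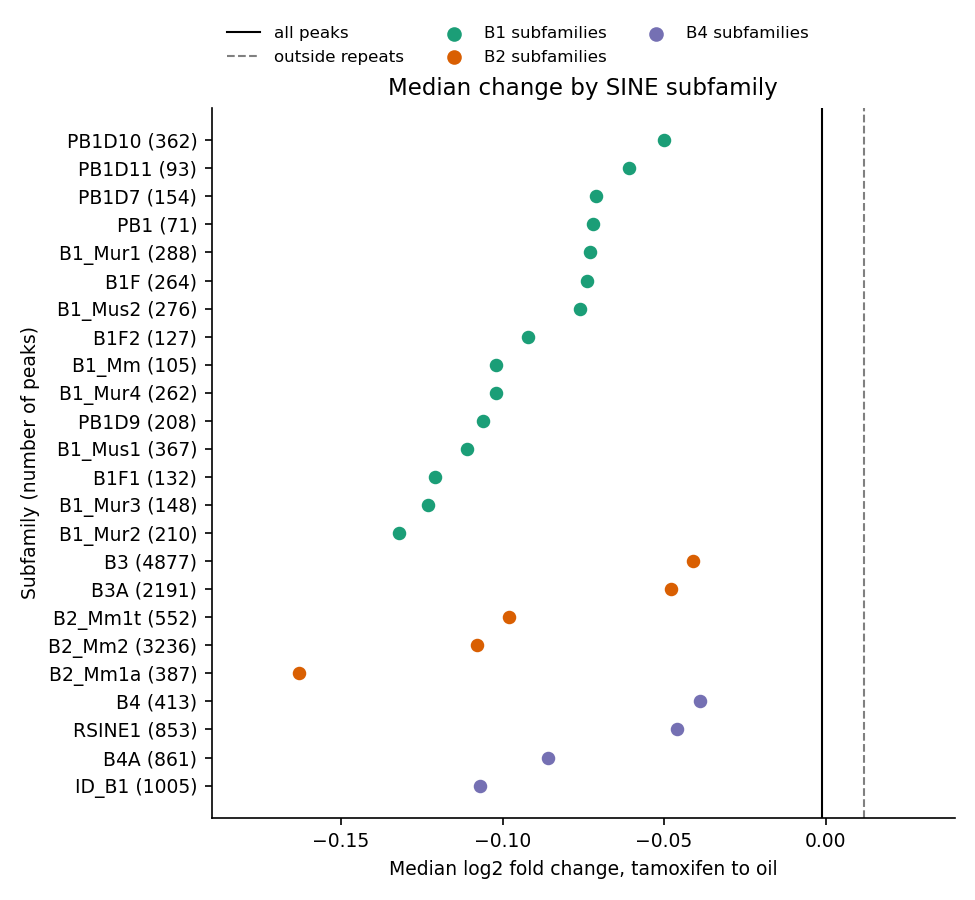
Median log2 fold change of tamoxifen to oil (horizontal axis) in each SINE subfamily with over 50 peaks (vertical axis, number of peaks in brackets), beside the medians of all peaks (solid line) and of peaks outside repeats (dashed line). Every point lies to the left of both lines, B2_Mm1a farthest at -0.16.

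The shift was largest where tags were few. Up to 25 normalised tags the median was -0.20 in B1, -0.18 in B2 and -0.14 in B4, against -0.03 outside repeats and -0.07 over all peaks of that level. Above 100 tags it was -0.05, 0.00 (-0.002 before rounding) and -0.06, against 0.01 outside repeats. It also went with the list that a peak came from. Of SINE peaks, 25.1% came from the authors' oil list alone and 10.2% from the tamoxifen list alone, against 17.4% and 11.2% of all peaks. Peaks on both lists had medians of -0.05 in B1, -0.04 in B2 and -0.04 in B4, against 0.03 for peaks outside repeats on both lists. Both lists were made from these same libraries, so a peak on 1 list was already apt to be higher in that group, and the part of this choice in the shift was not tested. The medians of B1 and B2 were below 0 in each of 5 bins of GC content (B1 -0.12 to -0.09, B2 -0.11 to -0.06), and those of B4 in 4 of 5, the exception being 0.02 over 130 peaks under 40% GC.

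Few single copies passed the test. With an adjusted p under 0.05 in DESeq2 and a change of more than 2-fold, 43 SINE peaks were called (0.247%), against 0.654% of all peaks and 0.777% outside repeats. LINE-1 peaks were called at 1.11% and LTR peaks at 1.12%. Of the 43, 26 were higher after tamoxifen (0.149%, against 0.588% of all peaks) and 17 lower (0.0975%, against 0.0659%). B1 had 3 higher and 3 lower (0.196% called), B2 10 higher and 11 lower (0.187%), and B4 13 higher and 3 lower (0.511%). Called higher were 0.0978% of B1, 0.0889% of B2 and 0.415% of B4 peaks, so B4 lay nearest to the 0.588% of all peaks. The share of SINE peaks called was also lower in each of 4 level classes, at 0.209 to 0.298% against 0.417 to 1.26% outside repeats. Over all peaks it was 0.31 to 1.09%, and above 100 tags SINE peaks (0.298%) stood close to all peaks (0.31%). Up to 25 tags, B4 peaks were called at 0.549%, against 0.494% outside repeats. In 42 of the 43 the tamoxifen and oil libraries did not overlap, the exception being a B4A copy in Gch1. The number rested on single libraries. Without tamoxifen replicate 4 it was 142 (72 higher and 70 lower), among them 41 of the 43, against 1.54% of all peaks, and without any other library it was 13 to 21. edgeR called 84 SINE peaks, 38 of them among the 43, against 1.03% of all peaks.

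**Figure D4:**
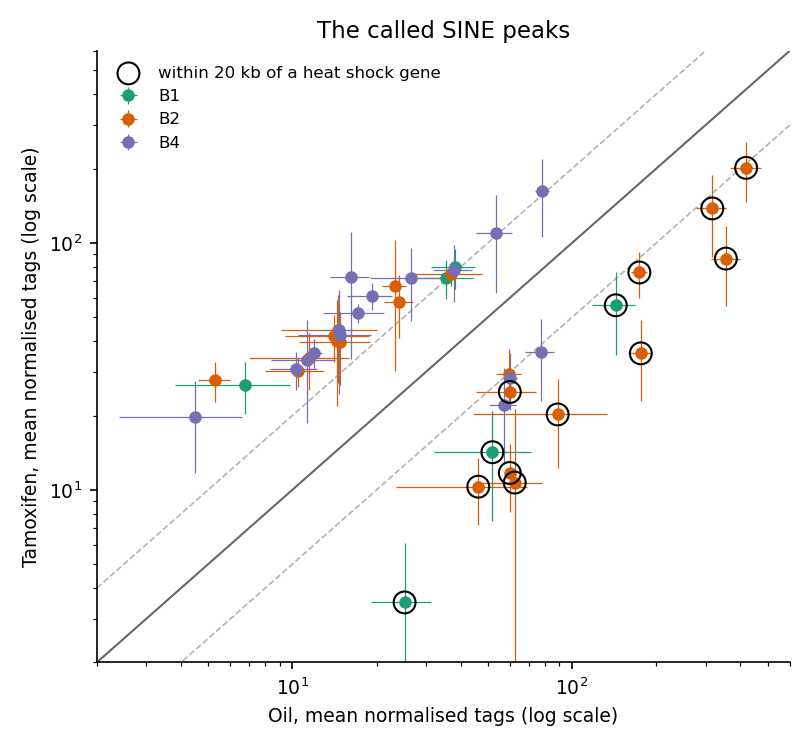
Mean normalised tags of the 43 called SINE peaks in the oil (horizontal axis) and tamoxifen groups (vertical axis), both on log scales, coloured by family, with SD over 3 libraries as bars, which are cut at the lower edge of the plot. The solid line marks equal levels, the dashed lines a fold of 2, and the circles the 13 peaks within 20 kb of a heat shock gene, all of which lie below the lines.

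The lower copies clustered by heat shock genes, as did lower peaks in general. Over all peaks, 116 were lower, and 74 of these lay within 20 kb of a heat shock gene on the list given below. The clustering was therefore not particular to SINE copies, and the shares were not compared by a test. Of 17 lower SINE peaks, 13 lay within 20 kb of Hspa1b, Hsp90aa1, Hsph1 or the Hspd1 and Hspe1 pair, and they included the 5 named B2 copies and all 3 lower B1 copies. Hspa1a and Hspa1b encode inducible Hsp70, Hsp90aa1 inducible Hsp90, Hsph1 the co-chaperone Hsp110, and Hspd1 and Hspe1 the mitochondrial chaperonin. The B3 copy whose sequence is printed above, centred in a peak at chr17:34945054-34945509, lay 10.9 kb past the 3′ end of Hspa1b, while the nearest start site was that of Snord52. It held 158.8, 176.0 and 193.5 normalised tags in oil replicates 1, 2 and 4 and 25.6, 31.2 and 50.3 in tamoxifen replicates 1, 3 and 4. The groups were far apart, and the log2 fold change was -2.30 ± 0.23 (SE, adjusted p = 4.59e-19).

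Its neighbours moved with it. A second B3 copy at chr17:34947119-34947570, 8.9 kb past the gene, held 342.0, 320.3 and 401.8 tags after oil and 67.2, 70.2 and 122.0 after tamoxifen (log2 fold change -2.03 ± 0.28 SE, adjusted p = 2.59e-09). A B2_Mm2 copy at chr17:34943538-34943868 held 58.5, 59.0 and 62.3 after oil and 15.5, 8.4 and 11.2 after tamoxifen (-2.33 ± 0.36 SE, adjusted p = 2.25e-07). The PB1D9 copy of B1 printed above, 2.6 kb past the gene, held 137.9, 121.4 and 170.7 after oil and 37.7, 51.8 and 78.2 after tamoxifen (-1.36 ± 0.24 SE, adjusted p = 8.66e-06). In these 4 copies the groups did not overlap, and tamoxifen replicate 4 was the highest of its group in 3. A PB1D7 copy of B1 at chr17:34962539-34962739, 3.3 kb upstream of Hspa1b, fell from 51.9 ± 19.7 to 14.2 ± 6.7 tags (SD, n = 3 each, log2 fold change -1.85 ± 0.40 SE, adjusted p = 1.18e-03).

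The other heat shock loci held the same kind of copies. By Hsp90aa1, a B2_Mm1t copy at chr12:110680280-110680601, 10.4 kb past the 3′ end and in an intron of 1700001K19Rik, held 171.0, 164.3 and 186.8 tags after oil and 65.7, 67.4 and 94.5 after tamoxifen (log2 fold change -1.19 ± 0.19 SE, adjusted p = 4.16e-07). By Hsph1, a B3 copy at chr5:149610970-149611257 held 39.2, 27.8 and 71.7 after oil and 10.1, 7.2 and 13.5 after tamoxifen (-2.23 ± 0.45 SE, adjusted p = 3.03e-04), in an intron of Wdr95. A B1_Mm copy at chr5:149608356-149608567, in the same gene, held 18.2, 27.8 and 29.6 after oil and 4.8, 0.6 and 5.1 after tamoxifen (-2.79 ± 0.64 SE, adjusted p = 2.31e-03). No group overlapped in any of these. The Hsp90aa1 copy and, by Hspa1b, the pair of B3 copies and the PB1D9 copy were called without each library in turn, and the other named copies in every such fit that gave them an adjusted p, which for the B1_Mm copy was 1 of 6. The remaining called copies were B3 or B3A of B2, 2 by Hsp90aa1 (-1.05 and -1.20), 2 by Hsph1 (-2.14 and -2.51) and 1 by Hspe1 (-1.25).

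SINE copies were a part of wider regions. A list of 9 heat shock genes (those above with Hsp90ab1, Dnajb1 and Hspa8), chosen after the called peaks were seen, had 375 peaks within 20 kb, of which 74 were lower and none (0) higher. The 70 SINE peaks among them had a median log2 fold change of -0.58 with 13 lower, and the 305 others -0.68 with 61 lower. Of the 70, 67 had a value below 0. Taken from the nearest of these genes, the position was mostly downstream, where 50 of the 70 and 11 of the 13 lower peaks lay. Upstream lay 13 and 1, and inside the gene 7 and 1. The lower peak upstream of Hspa1b also lay past the 3′ end of Hspa1a. Sides were not counted for the 305 other peaks, so a downstream position is not shown to be particular to SINE copies. Outside these windows the 17373 other SINE peaks had a median of -0.07, with 4 lower and 26 higher. By Dnajb1, a co-chaperone of Hsp70, a B4 copy at chr8:83619218-83620068 fell short of the fold limit at 449.5, 454.4 and 624.0 tags after oil and 299.6, 262.4 and 251.4 after tamoxifen (log2 fold change -0.91 ± 0.13 SE, adjusted p = 1.81e-08). The 13 of 17 lower peaks became 19 of 70 without tamoxifen replicate 4, 7 of 7 without oil replicate 2 and 7 of 7 without oil replicate 4. The heat shock element was found in the 200 bp centre of 2 of all 17 lower SINE peaks and 1 of the 26 higher ones, against 2.25% of all SINE peaks. These counts are small and were not tested.

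**Figure D5:**
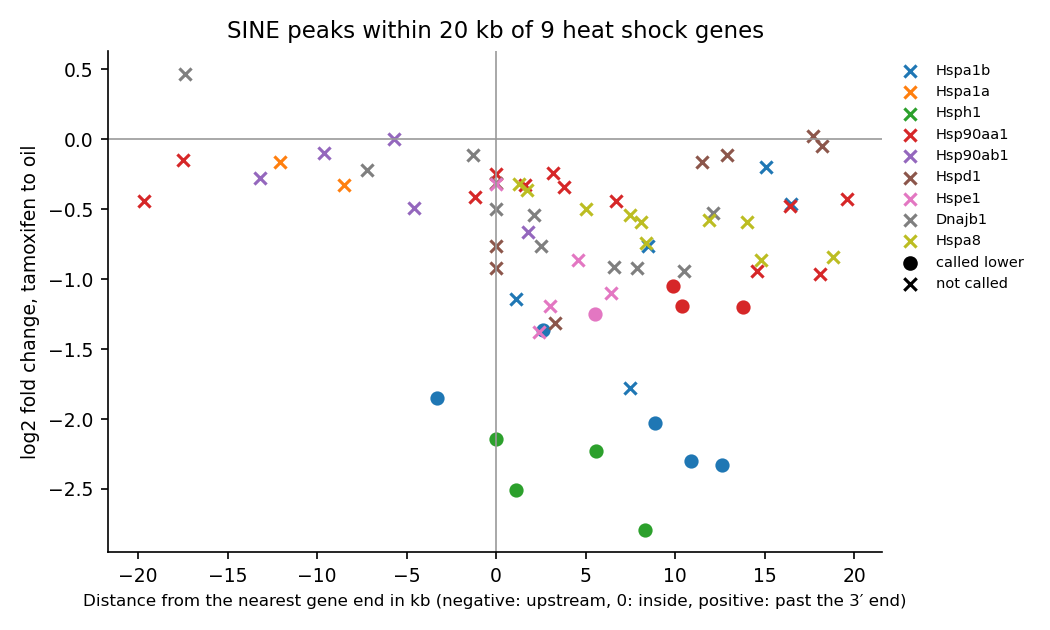
The 70 SINE peaks within 20 kb of 9 heat shock genes, with the log2 fold change of tamoxifen to oil (vertical axis) against the distance in kb from the nearest of these genes (horizontal axis, negative upstream, 0 inside, positive past the 3′ end), coloured by gene. Dots mark the 13 peaks called lower, of which 11 lie past the 3′ end, and 67 of the 70 peaks lie below 0.

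The 3 lower B4 copies lay elsewhere. The B4A copy upstream of Sppl2a, an intramembrane protease, at chr2:126957344-126958101, held 52.4, 54.1 and 64.1 tags after oil and 16.4, 17.3 and 32.6 after tamoxifen (log2 fold change -1.36 ± 0.33 SE, adjusted p = 6.11e-03). In introns of Itgb1, the integrin beta 1 subunit that binds cells to matrix, an ID_B1 copy at chr8:128718168-128719133 held 87.7, 73.6 and 70.3 after oil and 50.3, 24.5 and 33.5 after tamoxifen (-1.09 ± 0.28 SE, adjusted p = 1.26e-02). A B4A copy at chr8:128713351-128713824 in the same gene fell from 59.9 ± 3.4 to 28.5 ± 7.4 (SD, n = 3 each, -1.04 ± 0.30 SE, adjusted p = 3.80e-02). The oil and tamoxifen values were apart in all 3. None (0) of the B4 copies was lower by the same thresholds without any single oil library or without tamoxifen replicate 3, and 19 were without tamoxifen replicate 4. The remaining lower member was a B3 copy by Sla2 (-1.04).

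Of the 26 higher copies, 16 (61.5%) were intronic and 20 (76.9%) had at most 50 normalised tags, against 52.9% and 66.5% of all SINE peaks. Of them 21 came from the tamoxifen list alone, they lay on 13 chromosomes, and their levels ran from 12.1 to 120.2 tags. Their number was 72 without tamoxifen replicate 4 and 3 to 8 without any other library. Rgs1, a regulator that shortens G protein signals, held neighbouring copies of different families. The B4 copy printed above (chr1:144248229-144248468) held 14.3, 15.1 and 19.3 tags after oil and 67.2, 113.6 and 36.8 after tamoxifen (log2 fold change 2.12 ± 0.38 SE, adjusted p = 1.83e-05). A B3 copy at chr1:144247435-144247812 held 24.8, 20.5 and 24.2 after oil and 48.3, 108.6 and 43.3 after tamoxifen (1.53 ± 0.36 SE, adjusted p = 3.89e-03). Tamoxifen replicate 3 was highest in both, and no oil value reached a tamoxifen value. The B4 copy was called without each library in turn, whereas the B3 copy was not called without tamoxifen replicate 3 (log2 fold change 0.99, adjusted p = 0.592), without oil replicate 2 (adjusted p = 0.0776) or in edgeR (adjusted p = 0.0646).

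The other named higher B4 copies also lay in introns. The B4A copy in Plcg2, phospholipase C gamma 2, at chr8:117537056-117537277 held 20.4, 21.9 and 15.2 tags after oil and 62.8, 67.4 and 52.6 after tamoxifen (log2 fold change 1.69 ± 0.32 SE, adjusted p = 9.29e-05). That in Prkce, a protein kinase C, at chr17:86383776-86384323 held 14.3, 15.1 and 22 after oil and 57.5, 49.0 and 49.8 after tamoxifen (1.60 ± 0.34 SE, adjusted p = 8.02e-04). That in Camk2b, a calcium-dependent kinase, at chr11:6011822-6012230 held 80.5, 73.1 and 81.1 after oil and 184.1, 204.5 and 97.8 after tamoxifen (1.05 ± 0.23 SE, adjusted p = 1.29e-03). In all 3 the groups were apart, and in Camk2b replicate 4 lay nearer to oil than to the other tamoxifen libraries. A B4 copy in Xylt1, which starts glycosaminoglycan chains, at chr7:117586596-117587061 rose from 26.6 ± 7.7 to 71.8 ± 23.3 (SD, n = 3 each, 1.43 ± 0.32 SE, adjusted p = 1.59e-03). The Plcg2 and Prkce copies were called without each library in turn, but the Camk2b copy was not without tamoxifen replicate 1 or 3 or in edgeR (adjusted p = 0.0654, 0.158 and 0.0553), nor the Xylt1 copy without oil replicate 1 or tamoxifen replicate 3 (adjusted p = 0.0825 and 0.219).

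Among B2 copies, the B3 copy nearest to Mettl4 held 5.5, 5.9 and 4.5 tags after oil and 26.6, 33.4 and 23.3 after tamoxifen (log2 fold change 2.40 ± 0.54 SE, adjusted p = 1.63e-03). A B3A copy in an intron of Thrb, a thyroid hormone receptor, at chr14:17904636-17904846 held 8.8, 15.6 and 17.9 after oil and 52.2, 38.4 and 35.4 after tamoxifen (1.55 ± 0.39 SE, adjusted p = 9.92e-03). Both groups were apart, at levels where few tags stood behind each oil value. The other named B2 copies were a B3 at chr9:115709855-115710077 nearest to Gadl1 (1.25 ± 0.32 SE, adjusted p = 1.43e-02) and a B3A in Ldlrad4 at chr18:68121563-68121822 (1.58 ± 0.41 SE, adjusted p = 1.44e-02). The Gadl1 copy was called without tamoxifen replicate 4 but not without any of the other 5 libraries. The Thrb copy lost its call without oil replicate 1 and the Ldlrad4 copy without oil replicate 1 or tamoxifen replicate 1, and without some other libraries these copies and that by Mettl4 had too few tags for DESeq2 to give an adjusted p.

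The 3 higher B1 copies included one upstream of Srp9, which encodes a protein of the signal recognition particle that binds the part of 7SL RNA from which B1 descends. This B1_Mur1 copy at chr1:182096933-182097361, at -27590 bp from the Srp9 start, held 33.1, 45.8 and 35.4 tags after oil and 94.2, 81.3 and 64.7 after tamoxifen (log2 fold change 1.07 ± 0.26 SE, adjusted p = 7.63e-03). A B1F copy in Septin11, a cytoskeletal GTPase gene, at chr5:93109558-93109764 held 6.6, 3.9 and 9.9 after oil and 19.8, 32.3 and 27.5 after tamoxifen (1.95 ± 0.52 SE, adjusted p = 1.94e-02). A PB1D10 copy at chr15:97469655-97469903, nearest to Amigo2, held 39.2, 41.9 and 25.5 after oil and 68.6, 86.3 and 61.0 after tamoxifen (1.03 ± 0.28 SE, adjusted p = 2.54e-02). Oil and tamoxifen libraries were apart in each, but the calls rested on single libraries. The Srp9 copy lost its call in 4 of the 6 fits that left out 1 library and the Amigo2 copy in 5, and in 5 of them the Septin11 copy had too few tags for an adjusted p.

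The most open SINE peaks were not called. Those of B1 were a B1_Mus1 copy at chr11:101658476-101658872 nearest to Arl4d, with 1204.8 ± 32.1 tags after oil and 1104.0 ± 74.1 with tamoxifen, and a PB1D9 copy in Tex14 at chr11:87462518-87462981, with 1137.5 ± 36.8 and 1033.1 ± 72.2 (SD, n = 3 each). Those of B2 were B3A copies, one at chr8:70704545-70705168 nearest to Jund, a subunit of AP-1, with 908.4 ± 104.9 and 937.4 ± 178.8, and one in Tex14 at chr11:87449297-87449573, with 644.3 ± 17.2 and 583.7 ± 53.4 (SD, n = 3 each). Those of B4 were a B4A copy at chr4:134981964-134982396 nearest to Syf2, with 770.1 ± 50.6 and 713.5 ± 55.1, and a B4 copy at chr15:100443610-100443847 nearest to Gm5475, with 719.2 ± 53.9 and 682.6 ± 14.2 (SD, n = 3 each). Log2 fold changes ran from -0.14 to 0.05 and adjusted p from 0.631 to 0.993.

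Genes that transcribe, silence or sense SINEs were examined at their own start sites. Of 21 genes of RNA polymerase III and its factors, 20 had 58 peaks within 3000 bp of a start site, of 20 genes of chromatin silencing 20 had 81, and of 10 genes of SINE RNA binding, editing and sensing 10 had 40. DESeq2 called none (0) of them in either direction, and neither did edgeR (0). At an unadjusted p under 0.05 there were 2 peaks in the polymerase III list, both lower, 1 in the silencing list, lower, and 3 in the sensing list, 2 higher and 1 lower, while 9.02% of all peaks passed that limit. The median log2 fold changes of the lists were -0.03, -0.03 and -0.07. The smallest p of each list belonged to a Gtf3c6 peak (TFIIIC subunit), with 278.5, 268.6 and 308.2 tags after oil and 204.9, 200 and 265.8 after tamoxifen (log2 fold change -0.35 ± 0.14 SE, adjusted p = 0.291). In the silencing list it was a peak of Uhrf1, which maintains DNA methylation, with 545.5, 485.1 and 507.6 after oil and 406.9, 367.1 and 478.6 after tamoxifen (-0.29 ± 0.11 SE, adjusted p = 0.229). In the sensing list it was a peak of Adar, the interferon-inducible editor of double-stranded RNA, with 97.6, 90.2 and 113.8 after oil and 146.9, 122.6 and 153.6 after tamoxifen (0.49 ± 0.18 SE, adjusted p = 0.213). The groups did not overlap in any of the 3 peaks, and none passed the adjusted test.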

How the data were processed

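ATAC-seq tags per peak were analysed in 3 oil and 3 tamoxifen libraries, grouped by sample title. Per the study's methods and the file headers, the authors mapped reads to mm10 with Bowtie2 at default settings, which report 1 placement per read, called peaks with HOMER (style factor, size 200, minimum distance 200), merged 1 list per group into a common set and counted tags over it. What the authors deposited are raw tags, an estimated count in steps of 0.5, not normalised and limited to 3 tags per position. Whether HOMER then kept reads that map equally well to several copies is not given in the sources used here, and it bears on young repeats in particular.

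Tags were rounded to whole numbers and all 175929 peaks were fitted in DESeq2 1.42.0 (R 4.3.3), by the Wald test of the group term, and p-values were adjusted over all peaks (Benjamini-Hochberg). A call required a change of more than 2-fold with an adjusted p under 0.05, as in the study, which however left out peaks within 3000 bp of a start site. edgeR 4.0.16 (quasi-likelihood), other scalings, a GC offset, filters, thresholds, the replicate block and leaving out each library were alternatives. Both tests were checked on simulated data that had the spread of the oil libraries in both groups. Over SINE peaks that spread was smaller than in the tamoxifen libraries, so the check does not cover the larger spread. In each family the named peaks were the 5 with the smallest adjusted p in each direction among called peaks whose groups did not overlap, and the 2 with the highest level. In the gene lists they were the peak with the smallest p and any called peak. Members, lists, motifs and rules were chosen with earlier results of these data known. The list of 9 heat shock genes, the recurrent words and the filter at 40 tags were chosen after the values were seen. Gene ends, sequences and masked bases came from RefSeq's GRCm38.p6, and 17419 of 17443 SINE peaks had reference sequence.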

Additional observations from a re-analysis of the deposited data

How the results depend on the processing

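TMM scaling, scaling to total mapped tags or to tags in peaks, a GC-dependent offset and the fit of distal peaks alone kept the number of called SINE peaks at 43 to 48, and a filter at a mean of 10 tags removed no peak. edgeR called 84 (B1 15, B2 39, B4 30). Without a fold limit there were 79 (14, 39 and 26), and at an adjusted p under 0.1 59, with B1 at 11. A filter at a mean of 40 tags, added after the data were seen, left 22 (3, 11 and 8), 8 of them by heat shock genes, since weak peaks were no longer tested. Leaving out 1 library gave 13 to 142 SINE peaks (B1 1 to 34, B2 6 to 63, B4 3 to 45), 7 to 19 of them lower by heat shock genes; the highest value in each range came without tamoxifen replicate 4. With the replicate block, which could use only numbers 1 and 4 and so 4 libraries, 3 B2 peaks (B1 0, B4 0), all lower and by heat shock genes, were called. Deviations of same-numbered libraries correlated at -0.05 and 0.02 over SINE peaks. At these tag levels counting error makes up much of a deviation, so whether the numbers pair the libraries cannot be told. The median log2 fold changes stayed below 0 in every family under all these settings, at -0.04 (-0.043) over all SINE peaks and -0.033 in B2 with a mean of at least 40 tags. The share of B2 tags after tamoxifen over that after oil was 0.980 when taken of all mapped tags. Motif shares rose in whole peaks in place of the 200 bp centre, the B box to 33.7% in B2, for example. Of 448 values of the 33 named peaks under alternatives, 392 stayed on their side of the thresholds, 56 lost the call, and 31 further ones had no adjusted p. No called peak changed direction, but the uncalled B3A copy by Jund (0.05) turned to -0.18 with the replicate block, -0.04 without oil replicate 2 and -0.08 without tamoxifen replicate 3. Counting error limits what can be said of single copies, whose median was under 50 tags in each library.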
